A study of Homo sapiens with 9 samples.

Results

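Transcript levels of 6 genes of the 53BP1, shieldin and REV7 pathway were followed after knockdown of NFKB2 or RELB in U2OS, an established line from a human osteosarcoma. The genes TP53BP1, RIF1, SHLD1, SHLD2, MAD2L2 and REV3L were taken by symbol, and they were 6 of the 44608 entries in each count table. All of them were among the 14815 genes that passed the filter on low counts. Cells were given siRNA against NFKB2 (siNFKB2), siRNA against RELB (siRELB) or a non-silencing siRNA (siNS), and each group had 3 libraries. In all groups the siRNA was at 75 nM with Lipofectamine RNAiMAX, and RNA was taken 48 h later. NFKB2 and RELB encode partner subunits of the non-canonical NF-kB pathway. The labels name 1 cell line and give no clone, and they leave unsaid whether each replicate was its own culture. The p-values therefore reflect differences among libraries that may be technical.

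A broken chromosome can be rejoined end to end or repaired by homologous recombination from a sister copy. The choice depends on whether the broken ends are cut back into single strands, a step called resection. 53BP1, the protein of TP53BP1, gathers on chromatin beside the break and recruits RIF1. RIF1 in turn brings in shieldin, a complex of SHLD1, SHLD2, SHLD3 and REV7, which holds resection back and favours end joining. REV7, the protein of MAD2L2, also serves a separate complex. There it binds REV3L, the catalytic subunit of DNA polymerase zeta, which copies past damaged bases. MAD2L2 thus lies where the pathways meet.

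Start regions of MAD2L2 and REV3L are shown first because these genes encode direct binding partners whose transcripts moved in opposite directions. They are RefSeq sequences on GRCh38.p14, limited to the longest stretch before a listed start that lies in no GENCODE 29 exon, and are written 5′ to 3′ on the minus strand. The REV3L stretch precedes an inner start. It lies inside the GENCODE 29 span of the gene, whose 5′ end is at 111483715, and not upstream of the gene. Capitals mark the GC box GGGCGG on either strand and, in REV3L, the E2F-type sequence TTTCCCGC.
MAD2L2, chr1:11691651-11691728: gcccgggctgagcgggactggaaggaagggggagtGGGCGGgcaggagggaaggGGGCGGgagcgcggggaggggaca
REV3L, chr6:111483230-111483468: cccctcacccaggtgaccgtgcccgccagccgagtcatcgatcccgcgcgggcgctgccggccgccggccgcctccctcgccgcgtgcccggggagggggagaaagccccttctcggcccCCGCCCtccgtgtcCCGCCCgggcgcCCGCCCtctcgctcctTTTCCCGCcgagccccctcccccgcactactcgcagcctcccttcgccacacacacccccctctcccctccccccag
The RefSeq table held 6 windows for 4 of the 6 genes. The 250 bases before each start were searched on both strands. An E2F-type sequence (TTTCCCGC, TTTGGCGC, TTTGCCGC or TTTCGCGC) was found in 1 window, that of REV3L printed above, and in 2.8% of all 35116 windows of that length. The other REV3L window, at the outer start (chr6:111483712-111483961), had no E2F-type match. CCAAT was found in 1 window each of MAD2L2, RIF1 and TP53BP1, and in 32.0% of all windows. The GC box was present in all 6 windows and in 42.6% of all windows, and it overlapped none of the other sequences in the stretches printed. The kappaB consensus was found in none of the 6 windows and in 5.2% of all windows. These matches describe letters in the windows and are not evidence of binding.

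Total counts ranged from 15011789 to 19279572 per library. NFKB2 had 5.26, 22.9 and 48.4 CPM in siNFKB2 replicates 1 to 3, against 80.7, 126.5 and 117.2 CPM in siNS (log2 fold change -2.09, adjusted p = 0.021). The groups did not overlap, and NFKB2 was highest in siNFKB2 replicate 3, without which the log2 fold change was -2.93. The call was lost without siNS replicate 2 (adjusted p = 0.0532), siNS replicate 3 (0.0667) or siNFKB2 replicate 2 (0.0936). RELB fell to 4.23 ± 1.4 CPM in siRELB, against 27.2 ± 8.92 CPM in siNS (SD, n = 3 each; log2 fold change -2.69, adjusted p = 0.00881), a call lost without siNS replicate 3 (0.0575) or siRELB replicate 2 (0.0591). CPM are counts scaled to a common library size after TMM normalization, and adjusted p are from edgeR's quasi-likelihood test over all genes tested. Of 8 mesenchymal markers 7 or 8 were above 1 CPM in every group, with a summed level of 4833 to 5177 CPM in siNFKB2, 5214 to 6255 CPM in siRELB and 5821 to 7364 CPM in siNS. The epithelial markers summed to at most 17.1 CPM and those of blood and endothelium to at most 7.33 CPM in any library, with the T cell marker CD3E at 0 counts throughout. Mitochondrial rRNA, which differs with RNA quality or selection, took between 0.379% and 2.68% of counts.

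The 3 libraries numbered 1 stood apart in each group. Relative to the siNS mean, genes with over 8 kb of exonic sequence had a median log2 level of 0.18 in siNFKB2 replicate 1, 0.21 in siRELB replicate 1 and 0.22 in siNS replicate 1. In the other libraries that median lay between -0.13 and 0.06. Genes under 2 kb went the other way, at -0.19, -0.24 and -0.24 in the same 3 libraries. Elsewhere they lay between -0.10 and 0.20. Library siNS replicate 2 leaned opposite to the libraries numbered 1, at 0.20 under 2 kb and -0.13 over 8 kb. In siRELB against siNS the median log2 fold change was -0.16 under 2 kb and 0.09 over 8 kb. Between siNFKB2 and siNS it was -0.07 and 0.07. The members fall at both ends of this scale, since SHLD1 and MAD2L2 have 1.47 and 1.90 kb of exonic sequence, SHLD2 has 3.61 kb, and TP53BP1, REV3L and RIF1 have 10.63, 11.24 and 15.06 kb in GENCODE 29. Results are therefore also given without the libraries numbered 1 and with the length and GC trend removed, both settings chosen after the data were seen. The first of these does not remove the trend, since the libraries left still differ by length between groups. Genes under 2 kb were at 0.20 and 0.05 in siNS replicates 2 and 3, against -0.05 and -0.10 in siRELB and -0.02 and 0.01 in siNFKB2. Genes over 8 kb were at -0.13 and -0.08, against 0.04 and 0.06 in siRELB and 0.04 and 0.02 in siNFKB2.

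**Figure D1:**
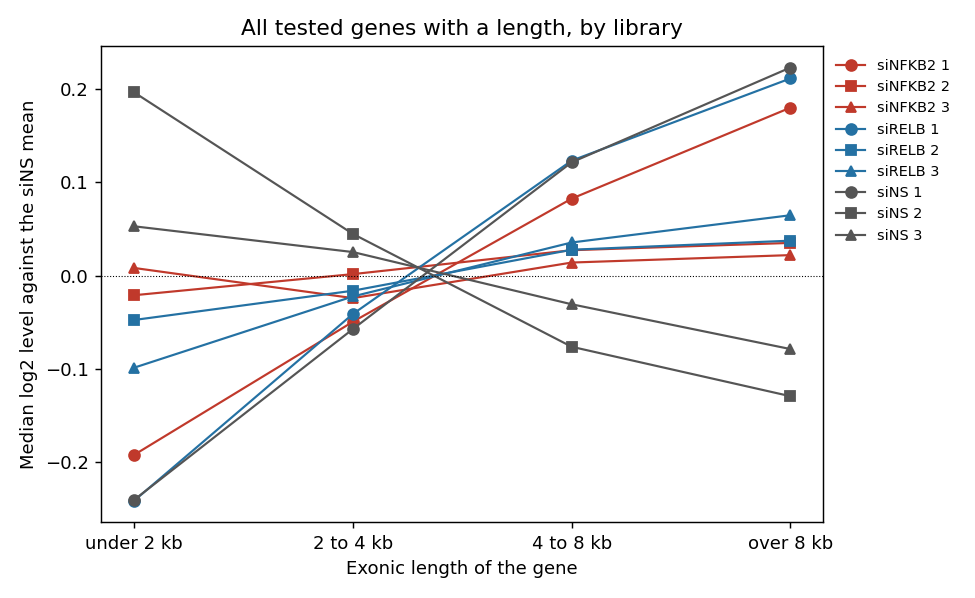
Median log2 level of all tested genes of known exonic length, relative to the siNS mean, in 4 length classes, with 1 line for each library. Lines of the 3 libraries numbered 1 (circles) run from -0.19 to -0.24 for genes under 2 kb up to 0.18 to 0.22 for genes over 8 kb, a steeper rise than in any other library.

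After NFKB2 knockdown the members split: SHLD2 and REV3L rose, MAD2L2 and SHLD1 fell, and TP53BP1 and RIF1 did not pass the test. That is 4 of 6 members called against siNS, in a comparison in which 26.1% of all genes tested were called, 12.6% higher and 13.5% lower. The libraries of both groups did not overlap for the same 4 members, nor for 37.4% of all genes. The members' median log2 fold change was 0.11, beside -0.00 for all genes, so the pathway as a whole had no common direction. Changes of this size were ordinary in this comparison. A log2 change at least as large as that of SHLD1 was seen in 18.8% of all genes and one at least as large as that of REV3L in 27.3%, with SHLD2 and MAD2L2 in between.

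**Figure D2:**
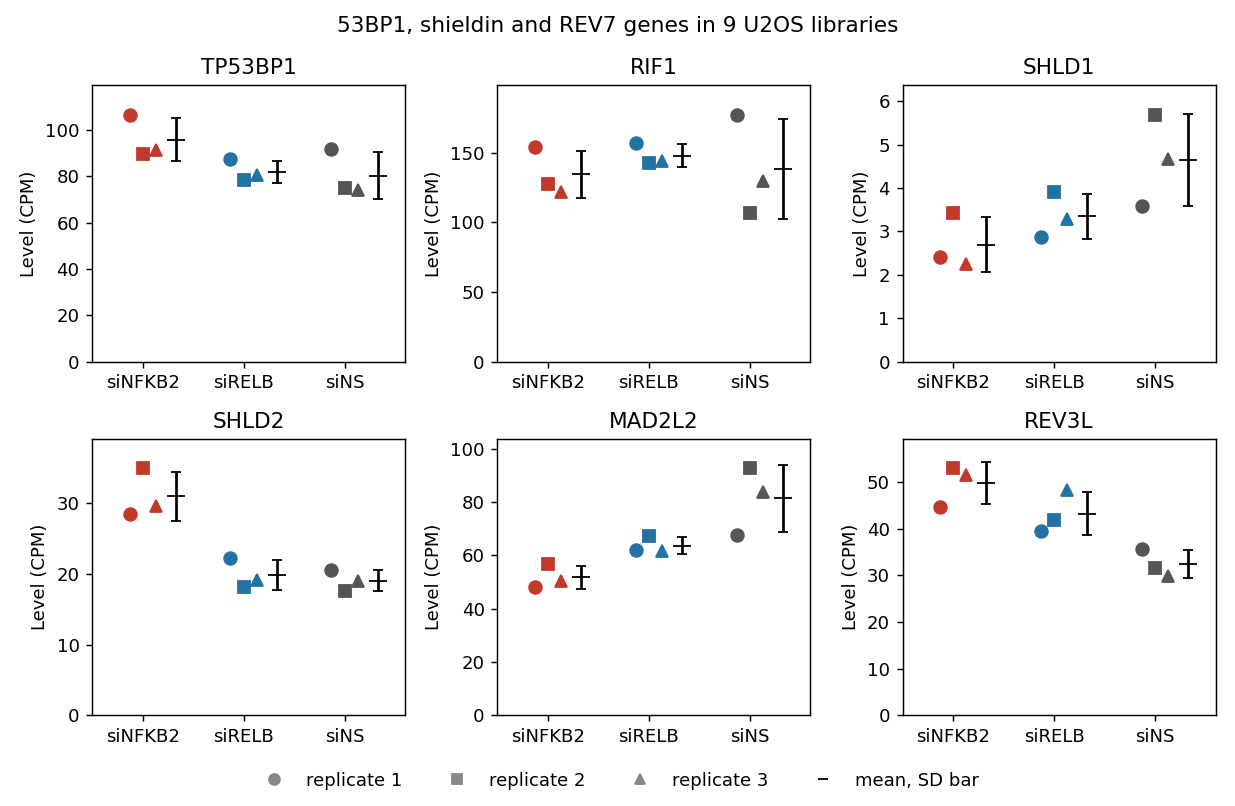
Level in CPM of each member in every library, by group, with the mean and SD (n = 3) as a black bar beside the points and the replicate number shown by the marker. SHLD2 and REV3L lie above all siNS points in siNFKB2, MAD2L2 and SHLD1 lie below them, and TP53BP1 and RIF1 overlap with siNS.

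TP53BP1 encodes the scaffold that starts the pathway. It had 106.7, 89.6 and 91.3 CPM in siNFKB2 replicates 1 to 3, against 91.9, 74.8 and 74.1 CPM in siNS. The siNS library numbered 1 lay within the siNFKB2 range, so the groups overlapped, and in both groups library 1 was the highest. The log2 fold change was 0.26 (SE 0.126, 95% interval -0.02 to 0.53, edgeR adjusted p = 0.162). It passed without the 3 libraries numbered 1 (log2 0.28, edgeR adjusted p = 0.026) and without siNS replicate 1 alone (log2 0.36, edgeR adjusted p = 0.0389), while with the length and GC trend removed it was 0.21 (edgeR adjusted p = 0.0589). Between same-numbered libraries the differences were 0.22, 0.26 and 0.30, all of 1 sign. On the opposite strand, exons of TUBGCP4 cover 28.7% of its exonic bases over all transcripts, and the use of strand in counting is not given in the sources used here. TUBGCP4 was at 34.7 CPM in siNFKB2 and 27.9 CPM in siNS (log2 0.31, edgeR adjusted p = 0.23).

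RIF1, the effector that links 53BP1 to shieldin, had 153.9, 127.6 and 121.8 CPM in siNFKB2 and 177.4, 107.0 and 129.6 CPM in siNS. The siNS libraries span the whole range of the siNFKB2 libraries. Its log2 fold change of -0.04 (SE 0.175, edgeR adjusted p = 0.904) had a 95% interval from -0.43 to 0.35, so changes up to those bounds in either direction lie within the error. The sign turned to 0.18 without siNS replicate 1, to 0.01 without siNFKB2 replicate 2, to 0.03 without siNFKB2 replicate 3 and to 0.07 without the libraries numbered 1. With the length and GC trend removed it was -0.20 (edgeR adjusted p = 0.0999).

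Within shieldin the transcripts diverged. SHLD2 encodes the subunit that binds single-stranded DNA. It had 28.4, 34.9 and 29.6 CPM in siNFKB2, against 20.5, 17.6 and 18.99 CPM in siNS. All siNFKB2 libraries exceeded all siNS libraries by a clear margin. The log2 fold change of 0.70 (SE 0.139) passed the test (edgeR adjusted p = 0.00499), and it was 0.82 without the libraries numbered 1 (adjusted p = 0.000345) and 0.61 with the length and GC trend removed (adjusted p = 0.00457). The near-identical copies SHLD2P1 and SHLD2P3 were counted at most 1 and 4 times in any library, so few reads were assigned to them. Opposite to SHLD2, GLUD1 covers 10.9% of its exonic bases and did not pass the test, at 101.5 CPM in siNFKB2 and 93.4 CPM in siNS (log2 0.12, edgeR adjusted p = 0.607).

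SHLD1 encodes the small subunit that joins the C-terminal part of SHLD2. It was the member with the fewest counts, with 34 to 59 per library in siNFKB2 and 68 to 91 in siNS. In CPM it had 2.42, 3.42 and 2.25 in siNFKB2 and 3.58, 5.69 and 4.67 in siNS. The highest siNFKB2 library lay just under the lowest siNS library. The log2 fold change of -0.78 (SE 0.251) passed narrowly (edgeR adjusted p = 0.0438). The call was lost when only the 6 libraries compared were fitted (adjusted p = 0.0862) and when any 1 of 7 libraries was left out: siNS replicate 2 (0.135), siNFKB2 replicate 3 (0.128), siNS replicate 3 (0.109), siNFKB2 replicate 1 (0.0974), or siRELB replicates 3 (0.0671), 2 (0.0598) or 1 (0.052). Across these the log2 fold change stayed between -0.61 and -0.78. It was -0.86 without the libraries numbered 1 (adjusted p = 0.0199) and -0.70 with the length and GC trend removed (adjusted p = 0.0261), and between same-numbered libraries -0.54, -0.71 and -1.02.

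SHLD3, a shieldin subunit that binds REV7, is not one of the 6 genes but completes the complex. It averaged 6.31 ± 0.496 CPM in siNFKB2 and 6.82 ± 1.61 CPM in siNS (SD, n = 3 each), and it did not pass the test (log2 -0.12, edgeR adjusted p = 0.696). Its sign turned without siNS replicate 1 (0.09) and without the libraries numbered 1 (0.13). On the same strand, exons of TRAPPC13 cover 17.4% of its exonic bases, so its count is uncertain, and TRAPPC13 was itself lower (log2 -0.56, edgeR adjusted p = 0.0304). That call was lost without siNS replicate 2 or 3, siNFKB2 replicate 2 or 3, or siRELB replicate 2 (adjusted p from 0.0523 to 0.126).

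MAD2L2 encodes REV7, the subunit common to shieldin and polymerase zeta. It had 48.3, 56.7 and 50.3 CPM in siNFKB2, against 67.8, 92.7 and 83.6 CPM in siNS. Every siNFKB2 library was below every siNS library, and among the siNS libraries the one numbered 1 was the lowest. MAD2L2 fell by 0.65 on the log2 scale (SE 0.135, edgeR adjusted p = 0.00631). It was -0.72 without the libraries numbered 1 (adjusted p = 0.00026) and -0.45 with the length and GC trend removed (adjusted p = 0.0192), and between same-numbered libraries it was -0.49, -0.71 and -0.73.

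REV3L had 44.7, 52.97 and 51.6 CPM in siNFKB2, against 35.7, 31.6 and 29.9 CPM in siNS. These groups did not overlap either, and library 1 was the nearest to the other group in both. REV3L rose by 0.62 on the log2 scale (SE 0.132, edgeR adjusted p = 0.00712). It was 0.76 without the libraries numbered 1 (adjusted p = 0.000201), 0.51 with the length and GC trend removed (adjusted p = 0.0331), and 0.32, 0.74 and 0.78 between same-numbered libraries. On the opposite strand, exons of the antisense genes AL080317.3, not analysed here, and TRAF3IP2-AS1 cover 4.64% and 0.942% of its exonic bases.

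After RELB knockdown no member passed the test against siNS, in a comparison with 2.02% of all genes called, 1.21% higher and 0.810% lower. By DESeq2 and limma-voom none passed either, and 2 of 6 had an unadjusted edgeR p under 0.05, MAD2L2 and REV3L. These 2 were also the members whose libraries did not overlap with siNS, as was the case for 22.5% of all genes. The siNS libraries serve both comparisons, so the likeness of direction between them is not independent.

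MAD2L2 had 62.0, 67.3 and 61.5 CPM in siRELB, against 67.8, 92.7 and 83.6 CPM in siNS. The siRELB libraries lay between the 2 other groups, with a narrow gap of less than 1 CPM to siNS replicate 1. The log2 fold change was -0.36 (SE 0.135, 95% interval -0.65 to -0.06, edgeR adjusted p = 0.223). It passed without siNS replicate 1 (log2 -0.47, adjusted p = 0.0308) and without the 3 libraries numbered 1 (log2 -0.45, adjusted p = 0.0118), but with the length and GC trend removed it was -0.17 (adjusted p = 0.505).

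REV3L had 39.4, 41.9 and 48.4 CPM in siRELB and 35.7, 31.6 and 29.9 CPM in siNS. All siRELB libraries exceeded all siNS libraries. The log2 fold change of 0.42 (SE 0.131, 95% interval 0.12 to 0.71) had an edgeR adjusted p of 0.146. It passed without siNS replicate 1 (log2 0.49, adjusted p = 0.0421) and without the 3 libraries numbered 1 (log2 0.55, adjusted p = 0.00505), and it was 0.28 with the length and GC trend removed (adjusted p = 0.362).

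The other 4 members overlapped with siNS. SHLD1 had 2.87, 3.90 and 3.28 CPM in siRELB, between the levels of the other groups (log2 -0.47 against siNS, SE 0.246, edgeR adjusted p = 0.369). SHLD2 had 22.2, 18.1 and 19.1 CPM in siRELB, close to siNS (log2 0.06, 95% interval -0.25 to 0.37, edgeR adjusted p = 0.874). TP53BP1 had 87.4, 78.2 and 80.5 CPM (log2 0.03, edgeR adjusted p = 0.925) and RIF1 157.2, 142.7 and 143.8 CPM in siRELB (log2 0.10, edgeR adjusted p = 0.819). With the length and GC trend removed the signs of SHLD2, TP53BP1 and RIF1 turned, to -0.04, -0.07 and -0.03.

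**Figure D3:**
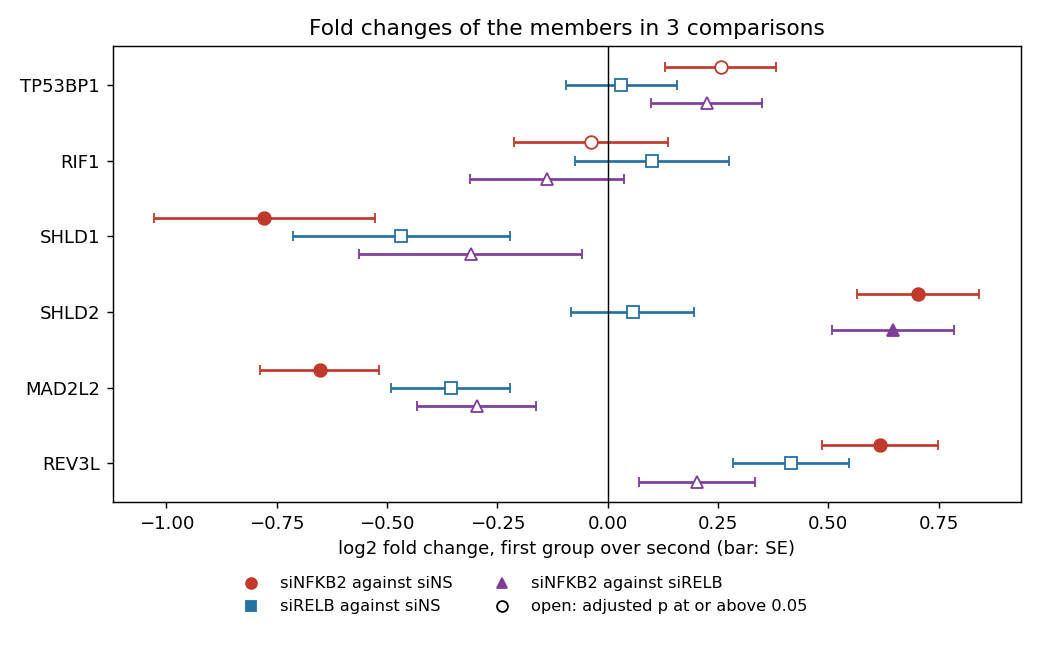
Log2 fold change of each member in 3 comparisons, the first group named over the second, with the SE as a bar. Filled points have an edgeR adjusted p below 0.05. The 4 filled circles of siNFKB2 against siNS lie on both sides of 0, and SHLD2 has the single filled point between the knockdowns in this fit, which has no replicate block.

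The direct comparison of siNFKB2 with siRELB asked whether the knockdowns differ. In the fit without a replicate block, SHLD2 alone among the members passed, where 26.6% of all genes were called, 12.2% of all genes higher and 14.3% lower. Its 28.4, 34.9 and 29.6 CPM in siNFKB2 stood above the 22.2, 18.1 and 19.1 CPM in siRELB (log2 0.65, SE 0.138, edgeR adjusted p = 0.00744), and it kept the call with each of the 9 libraries left out. For REV3L the difference was 0.20 (95% interval -0.09 to 0.49, edgeR adjusted p = 0.281), for SHLD1 -0.31 (-0.87 to 0.25, adjusted p = 0.4) and for RIF1 -0.14 (-0.53 to 0.25, adjusted p = 0.598). These intervals include 0 but also sizeable differences, so the knockdowns are not shown to act alike on these genes.

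MAD2L2 was lower in every siNFKB2 library, at 48.3, 56.7 and 50.3 CPM, than in any siRELB library, at 62.0, 67.3 and 61.5 CPM. The log2 difference was -0.30 (SE 0.135, edgeR adjusted p = 0.132). Deviations of same-numbered libraries in these 2 groups correlated at 0.54, 0.17 and 0.45, which leaves their pairing uncertain. With the replicate number as a block the edgeR adjusted p was 0.0347, while all genes called numbered 6054 with the block and 3934 without it. TP53BP1 also showed no overlap, as did 3 members in all and 46.0% of all genes, with 106.7, 89.6 and 91.3 CPM in siNFKB2 and 87.4, 78.2 and 80.5 CPM in siRELB. Its log2 difference of 0.22 (edgeR adjusted p = 0.213) became 0.29 with the length and GC trend removed (adjusted p = 0.0157).

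A ratio of counts within 1 library does not depend on how libraries are scaled, so MAD2L2 was set against each other member. For each SHLD2 count there were 1.70, 1.62 and 1.70 MAD2L2 counts in siNFKB2, 2.79, 3.72 and 3.22 in siRELB, and 3.31, 5.28 and 4.40 in siNS. The siNFKB2 libraries were nearly identical and lay below all others, and siRELB overlapped with siNS. In log2 the siNFKB2 mean was 0.74 ± 0.0369 and the siNS mean 2.09 ± 0.339 (SD, n = 3 each), a difference of -1.34. For each REV3L count there were 1.08, 1.07 and 0.974 MAD2L2 counts in siNFKB2, 1.57, 1.61 and 1.27 in siRELB, and 1.90, 2.93 and 2.80 in siNS. Here no groups overlapped, and siRELB lay in between. The log2 differences from siNS were -1.26 in siNFKB2 and -0.76 in siRELB.

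The ratio to SHLD1 overlapped between all groups, at 20.0, 16.6 and 22.4 in siNFKB2, 21.6, 17.2 and 18.7 in siRELB, and 18.97, 16.3 and 17.9 in siNS (log2 difference 0.13 for siNFKB2 minus siNS, two-sided exact permutation p = 0.4). The ratio to TP53BP1 was lower in siNFKB2 than in siNS by -0.90 in log2, without overlap. The ratio to RIF1 overlapped in all comparisons. Of 15 two-sided exact permutation tests, those of REV3L in every comparison had p = 0.1. So did those of TP53BP1 and SHLD2 with siNFKB2 against siNS or siRELB. This is the smallest p that 3 against 3 libraries allow in that test, and it is 0.214 when adjusted over the 15. This test therefore cannot reach 0.05 for any ratio. TP53BP1, RIF1 and REV3L are long beside MAD2L2 (1.9 kb of exonic sequence). SHLD2 (3.61 kb) is also longer, to a lesser degree, and SHLD1 (1.47 kb) is shorter. The part of the length trend in the ratios was not tested.

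**Figure D4:**
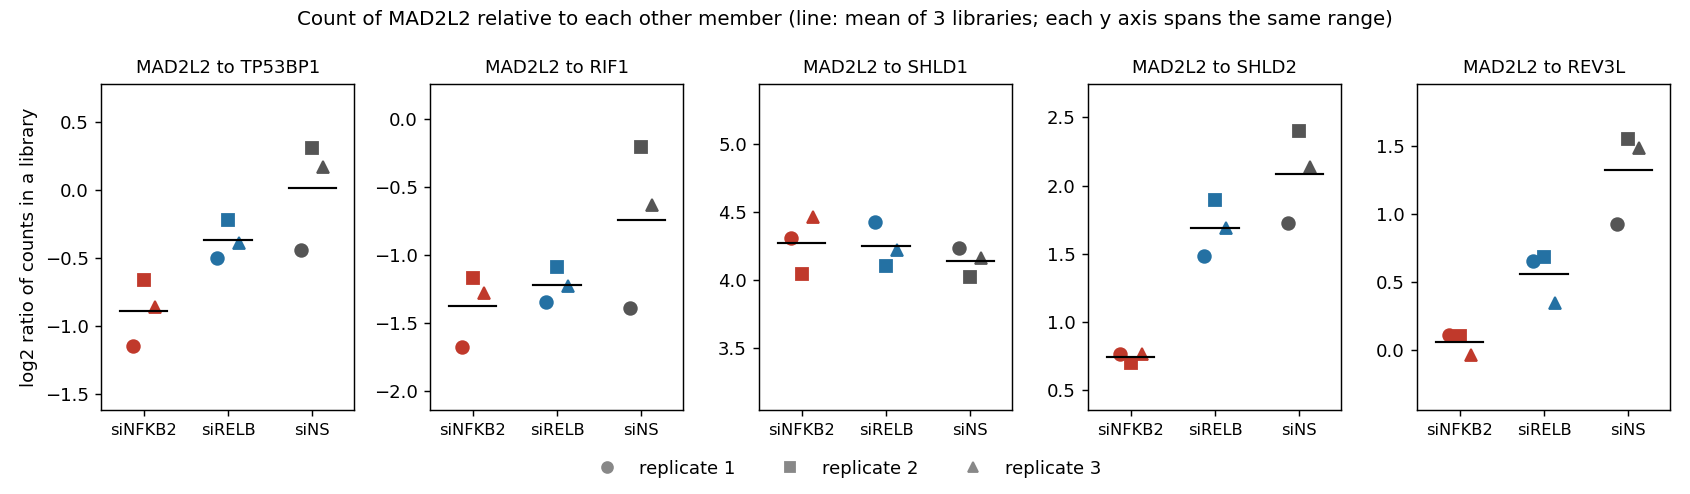
Log2 ratio of the MAD2L2 count to the count of each other member within every library, by group, with the mean of 3 libraries as a line. The ratios to SHLD2 and REV3L are lowest in siNFKB2, while the ratio to SHLD1 stays between 4.02 and 4.46 in all 9 libraries.

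Levels of different genes can be compared only per length, here as CPM per kb of exonic sequence. MAD2L2 was the highest member in every group, at 27.3 ± 2.33 in siNFKB2, 33.5 ± 1.71 in siRELB and 42.9 ± 6.63 in siNS (SD, n = 3 each). In siNS it was followed by RIF1 (9.16 ± 2.38), TP53BP1 (7.55 ± 0.944), SHLD2 (5.26 ± 0.406), SHLD1 (3.15 ± 0.717) and REV3L (2.88 ± 0.265). RIF1 and TP53BP1 overlapped in that order, as did SHLD1 and REV3L. In siNFKB2, TP53BP1 (9.02 ± 0.882), RIF1 (8.92 ± 1.14) and SHLD2 (8.57 ± 0.958) overlapped with each other, and REV3L (4.43 ± 0.394) and SHLD1 (1.83 ± 0.431) came last without overlap. In siRELB the order was RIF1 (9.82 ± 0.536), TP53BP1 (7.72 ± 0.448), SHLD2 (5.48 ± 0.588), REV3L (3.85 ± 0.41) and SHLD1 (2.27 ± 0.353), and no neighbours overlapped. With all GENCODE 29 transcripts in place of the basic set, RIF1 and TP53BP1 changed places in siNFKB2, and MAD2L2 fell to 15.6 in siNFKB2, 19.1 in siRELB and 24.5 in siNS, since the wider model is longer.

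Over the 9 libraries the log2 levels of SHLD1 and MAD2L2 correlated at r = 0.96, and those of MAD2L2 and REV3L at r = -0.85. SHLD2 correlated at 0.72 with REV3L and at -0.77 with MAD2L2. Among the 10614 other genes that averaged 5 CPM or more (10615 for SHLD1), the levels most like MAD2L2 were those of ASRGL1 (r = 0.98), CENPM (0.98) and RPL39L (0.97). For SHLD2 they were PTP4A2 (0.99), CMIP (0.99) and MPZL1 (0.98), and for REV3L SYTL2 (0.99), ZBTB39 (0.97) and NOL9 (0.97). TP53BP1 was most like AFF1 (0.99), RALGAPB (0.98) and WDFY3 (0.98), and RIF1 most like NOC3L (0.98), ARPP19 (0.98) and ZYG11B (0.98). SHLD1 was most like CALR, ILVBL and MAN1B1 (all 0.96). These points share libraries, groups and the length trend, and a best match among so many genes will be high, so the values are a description.

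The genes around the members were read from 7 lists. Upstream, the list of the damage signal that leads to 53BP1 had 13 of 15 genes tested. In siNFKB2 against siNS 2 rose, none fell and 11 were not called, with a median log2 fold change of 0.07. The counts of all 7 lists stand beside 12.6% of all genes called higher and 13.5% called lower in this comparison, and beside a median of -0.00. The risers were NUDT16L1, whose protein TIRR keeps 53BP1 off chromatin, at 32.0 ± 4.28 CPM in siNFKB2 and 21.8 ± 3.16 CPM in siNS (SD, n = 3 each; log2 0.55, edgeR adjusted p = 0.022), and KDM4A, a histone demethylase whose tudor domains bind the mark that 53BP1 reads (log2 0.35, adjusted p = 0.044). Neither passed when only the 6 libraries compared were fitted (adjusted p = 0.0629 and 0.0775). NUDT16L1 also lost its call without siNFKB2 replicate 2 (0.0807) or 3 (0.0592), and KDM4A without any 1 library other than the siNS and siRELB replicates 1 (0.0594 to 0.136). KDM4A was not called with no filter on low counts either. It passed in 12 of 21 alternatives, with an adjusted p of up to 0.163. H2AFX, the histone variant marked at breaks, was at 112.1 ± 32.1 CPM in siNFKB2 and 210.8 ± 91.4 CPM in siNS and was not called (log2 -0.91, adjusted p = 0.0613). RNF168, which ubiquitinates histones at breaks, was not called either (log2 0.32, adjusted p = 0.082).

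Downstream, 3 of 14 tested effectors fell in siNFKB2 and none rose (median -0.39). POLA2 and PRIM1, subunits of the DNA polymerase alpha and primase complex that fills resected ends, fell by 0.73 and 0.83 on the log2 scale (edgeR adjusted p = 0.0014 and 0.0111). PAGR1, a partner of the 53BP1 effector PTIP, fell by 0.59 (adjusted p = 0.0129), and POLA1 was at log2 -0.51 (adjusted p = 0.0579). PRIM1 lost its call without siNFKB2 replicate 2 (0.0609) and PAGR1 without siNS replicate 3 (0.0582). Among 6 genes around REV7, 2 fell (median -0.39). TRIP13, the ATPase that takes REV7 out of its complexes, had 106.6 ± 11.1 CPM in siNFKB2 and 143.6 ± 11.3 CPM in siNS (SD, n = 3 each; log2 -0.43, edgeR adjusted p = 0.0183). Its call was lost without siNS replicate 3 (0.091), siNFKB2 replicate 2 (0.0679) or siNFKB2 replicate 3 (0.0828), and in the fit of the 6 libraries alone (0.0595). CBX5, a heterochromatin protein, fell by 0.97 (adjusted p = 0.00218), and MAD2L1BP, the adaptor of TRIP13, was at log2 0.33 (adjusted p = 0.125).

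In translesion synthesis, 4 of 13 genes fell and none rose (median -0.20). POLD2 and POLD3, which polymerase zeta takes as accessory subunits, fell by 0.74 and 0.64 (edgeR adjusted p = 0.00425 and 0.00689), and the clamp PCNA fell by 1.09 (adjusted p = 0.000299). POLD1, the catalytic subunit of polymerase delta, fell by 0.70 (adjusted p = 0.0372), a call lost with only the 6 libraries compared (0.082), with limma-voom (0.0549) and without any 1 library other than the siNS and siRELB replicates 1 (0.0562 to 0.16). On the opposing side of the choice, 7 of 14 resection and BRCA1 genes fell and 1 rose (median -0.50), among them the helicases BLM (log2 -1.08), BRIP1 (-0.90) and DNA2 (-0.91). The one that rose was NBN, a subunit of the complex that senses breaks (log2 0.47, edgeR adjusted p = 0.0425), named after its value was seen. Its call was lost with only the 6 libraries compared (0.075), with no filter on low counts (0.0654) and without any 1 library other than the siNS and siRELB replicates 1 (0.0599 to 0.153). In the end joining core 3 of 12 fell and none rose (median -0.25): XRCC5, a Ku subunit (-0.97), XRCC4 (-0.49) and NHEJ1 (-0.51), with PAXX at -0.90 not called (adjusted p = 0.116). With only the 6 libraries compared, XRCC4 (0.0735) and NHEJ1 (0.0781) were not called. XRCC4 lost its call without siNS replicate 3 (0.114), siNFKB2 replicate 2 (0.101) or siNFKB2 replicate 3 (0.117), and NHEJ1 without any 1 library other than siNFKB2 and siRELB replicates 1 (0.0536 to 0.155).

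Among genes of S and G2/M phase, 18 of 20 fell (median -0.89), such as MCM3 (log2 -1.41), CDC45 (-1.09), E2F1 (-1.41) and CDC20 (-1.50). Their median relative to the siNS mean was -0.66, -1.02 and -1.07 in siNFKB2 replicates 1 to 3, against -0.11, -0.13 and -0.14 in siRELB and values from -0.01 to 0.02 in siNS. The part of cell cycle state in the members' changes was not tested. In siRELB against siNS, 2 of the 92 genes tested in all lists were called, PPP1CA (log2 -1.22) and AURKA (-0.81), both lower, beside 2.02% of all genes called. PPP1CA lost its call without siNS replicate 2 (adjusted p = 0.0545) or 3 (0.131) or siRELB replicate 2 (0.136) or 3 (0.127), with only the 6 libraries compared (0.0506) and with the length and GC trend removed (0.0782). AURKA lost it without siNS replicate 3 (0.0687) or siRELB replicate 2 (0.0861) or 3 (0.0862). The lists share no member with the 6 genes, but several hold replication genes, and differences between lists were not tested.

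**Figure D5:**
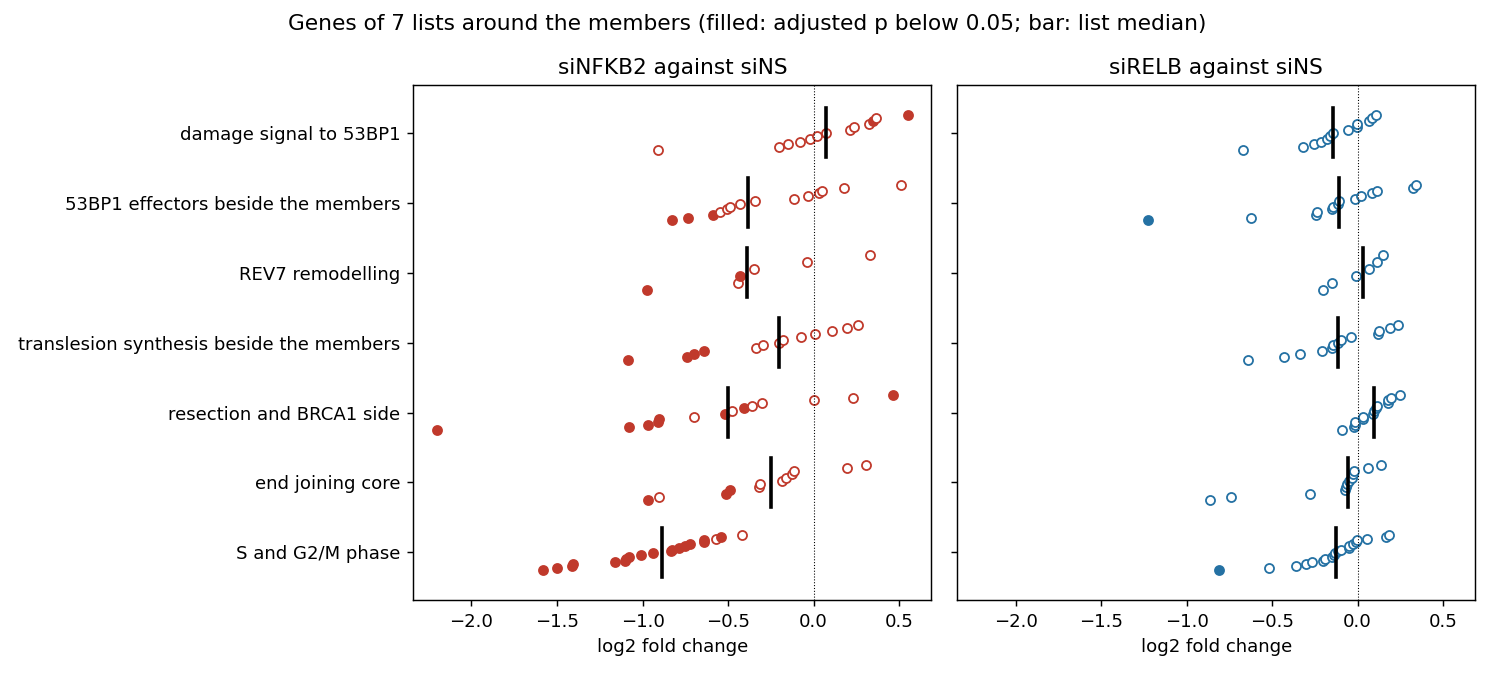
Log2 fold change of every tested gene of 7 lists around the members, in siNFKB2 against siNS (left) and siRELB against siNS (right), with filled points for an edgeR adjusted p below 0.05 and a bar at each list's median. On the left 18 of 20 S and G2/M phase genes are filled and lower, while on the right 2 points are filled over all lists.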

How the data were processed

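The authors deposited 1 table of whole-number counts per gene symbol for each of the 9 libraries, with no normalization. The submitters' processing notes list Trimmomatic 0.38, STAR 2.7.1a, Subread 1.6.4 and GRCh38.p13. For annotation and strand setting, the sources used here give nothing. All 9 libraries were fitted together with 3 group means in edgeR 4.0.16 (R 4.3.3; filterByExpr, TMM, quasi-likelihood F test, Benjamini-Hochberg adjustment over 14815 genes, called below 0.05). SE was taken as |log2 fold change| over the root of F. The common biological coefficient of variation was 0.184. Alternatives used DESeq2 1.42.0, limma 3.58.1 (voom), other scalings and filters, single libraries left out, and an offset for exonic length and GC, which 91.3% of tested genes had. The script was tested on simulated data. Libraries of a group differed beyond sampling noise (chi-square per degree of freedom 3.26 to 80.8). Of the entries, 5005 with a suffix were kept apart.

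Deviations of siNFKB2 and siRELB libraries of the same number correlated at 0.54, 0.17 and 0.45, so the numbers may pair these libraries. Against siNS the pairs numbered 1 correlated at 0.58 for siNFKB2 and 0.59 for siRELB, but not every pair passed 0.1. What a number marks is not given, and the part of the length trend in these correlations was not tested. The fit reported throughout has no replicate block, and blocked values stand beside it where they change a call between these groups. The members and lists were chosen with earlier results of these data known. In each list up to 4 genes with the smallest adjusted p in siNFKB2 against siNS are named, with list genes called in siRELB and the 3 genes most like each member. One gene that meets this rule is not reported here. Ratios used log2(count + 0.5).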

Additional observations from a re-analysis of the deposited data

How the results depend on the processing

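SHLD2, MAD2L2 and REV3L kept their direction and call in siNFKB2 against siNS under all 21 alternatives, with adjusted p up to 0.0285, 0.0287 and 0.0415, as SHLD2 did against siRELB (up to 0.0433). No other scaling, filter or tool changed a member's call or direction; SHLD1 is not tested at a mean of at least 5 CPM. With only the 6 libraries compared, SHLD1 in siNFKB2 (log2 -0.78, adjusted p = 0.0862) and NFKB2 (-2.09, 0.0502) lost their calls. SHLD3 ranged from -0.22 to 0.094 with 1 library left out and turned to 0.13 without the libraries numbered 1. Named list genes not called passed in some of the 21 alternatives: POLA1 in 10, H2AFX in 7, PAXX in 6 and RNF168 and MAD2L1BP in 4 each.

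Same-numbered pairs other than siNFKB2 with siRELB correlated between 0.04 and 0.59, and 3 of 9 libraries correlated best with their own number in both other groups. With the replicate block TP53BP1 passed in siNFKB2 against siNS (log2 0.26, adjusted p = 0.0419) and MAD2L2 in siNFKB2 against siRELB (-0.30), and genes called were 5944 in siNFKB2 and 1570 in siRELB against siNS and 6054 between the knockdowns. The block changed no other member's call.

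With the length and GC trend removed, TP53BP1, RIF1 and SHLD2 turned to -0.074, -0.026 and -0.038 in siRELB against siNS, TP53BP1 passed between the knockdowns (0.29), and 747 genes were called in siRELB. With trend and replicate block together these were -0.074, -0.026, -0.032 and 0.29, MAD2L2 passed between the knockdowns (-0.29), TP53BP1 passed in siNFKB2 against siNS (0.21), and genes called were 6481, 2025 and 6880. Without the libraries numbered 1, TP53BP1 (0.28) passed and RIF1 turned (0.073) in siNFKB2, MAD2L2 (-0.45) and REV3L (0.55) passed in siRELB, and genes called were 6711, 3390 and 6600. In siRELB against siNS DESeq2 called 879 genes and the fit of 6 libraries 129. List genes called there, 2 of 92, became 5 with DESeq2, 1 with 6 libraries, 8 with the block, 11 with block and trend, and 20 without the libraries numbered 1; in siNFKB2 they were 40, and 61 with block and trend. The cause was not tested.

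With 1 library left out, genes called ranged from 2220 to 4895 in siNFKB2 and from 15 to 1819 in siRELB against siNS, and from 2188 to 4917 between the knockdowns, and list genes called in siRELB from 0 to 11. NFKB2 ranged from -2.93 to -1.60 in siNFKB2 and RELB from -2.93 to -2.44 in siRELB. In siNFKB2, TP53BP1 ranged from 0.17 to 0.36, RIF1 from -0.19 to 0.18 and SHLD1 from -0.96 to -0.61. In siRELB, MAD2L2 ranged from -0.47 to -0.26, REV3L from 0.33 to 0.49, TP53BP1 from -0.032 to 0.14, RIF1 from -0.069 to 0.32 and SHLD2 from -0.033 to 0.12. The log2 ratio of MAD2L2 to SHLD1 between the knockdowns ranged from -0.073 to 0.14. SHLD1, at 34 to 91 counts a library, is the member that depth limits most.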
